A study of Drosophila melanogaster with 4 samples.

Results

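The regions described here are the LSD1-enriched regions that lie beside pericentric heterochromatin in chromatin of adult fly heads. Of the 11016 regions in the combined list, 518 started within the 2 Mb at the centromere-side end of an assembled chromosome arm, and 10336 lay in the rest of the same 5 arms (2L, 2R, 3L, 3R and X). Membership was set by position alone, so numbers of regions, widths, scores and replicate support were not used to choose them. The same rule gave 387 of 8115 regions in the list of replicate 1 and 436 of 9911 in the list of replicate 2. On release 5 of the fly genome, the build named in the file headers, the windows were 2L:21011545-23011544, 2R:1-2000000, 3L:22543558-24543557, 3R:1-2000000 and X:20422828-22422827.

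All samples came from wild-type Oregon-R flies of mixed adult age, and chromatin from sieved heads was precipitated with the LSD1 antibody Q3430 (2 ChIP libraries) or left as input (2 input libraries). Heads hold neurons, glia, muscle and other cells, so each value is a mixture over cell types. Whether replicates 1 and 2 stem from separate fly collections is not stated in the labels, and their spread may be technical. Read numbers per library were likewise not stated, so no interval that needs them is reported.

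LSD1 is a lysine demethylase, the product of Su(var)3-3 in flies, which removes methyl groups from H3K4 and works with the corepressor CoREST. The gene is named as a suppressor of variegation: mutants relieve the silencing of genes placed next to heterochromatin, and the enzyme is known from fly embryos to act where the border between euchromatin and heterochromatin is set up. Pericentric heterochromatin flanks each centromere, is rich in repeats and carries H3K9 methylation bound by HP1. In the assembly the arm sequences run from euchromatin into its outer part, while deeper heterochromatin is held in separate Het contigs. No mark of heterochromatin was measured, so the windows are defined by position and not by chromatin state. No test was run on the comparisons that follow, because regions and steps of 1 sample are not replicates and an exact sign-flip test (two-sided) over 2 replicates has 0.5 as its smallest p. Values are therefore given per list and per arm, and mean ± SD is over the replicate lists (n = 2).

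The first question was whether regions were as dense near the centromere as along the rest of the arm. They were not on 4 of the 5 arms. The windows held 51.8 combined regions per Mb, against 94.8 per Mb in the rest of the arms, a ratio of 0.546. Replicate 1 gave 38.7 per Mb in the windows and 69.4 in the rest, and replicate 2 gave 43.6 and 85.9. The ratio over the replicates was 0.533 ± 0.035 (SD, n = 2). Regions covered 19.6% of the windows in the combined list, against 38.5% of the rest. In the replicates the covered share was 14.8% ± 0.146 in the windows and 28.6% ± 0.692 in the rest (SD, n = 2), so the gap between windows and rest was much wider than the gap between replicates.

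3L had the sparsest window, with 57 combined regions (28.5 per Mb) against 89.3 per Mb in the rest of the arm. Its ratio was 0.311 in replicate 1 and 0.265 in replicate 2. 2L followed with 68 regions, or 34.0 per Mb against 92.7, and ratios of 0.407 and 0.382 in replicates 1 and 2. On 2R the window held 91 regions, 45.5 per Mb against 96.8, with ratios of 0.539 and 0.391. The X window held 127 regions, 63.5 per Mb against 104.0, with ratios of 0.519 and 0.557. On these 4 arms both replicates were lower in the window than in the rest.

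3R did not share this pattern. Its window held 175 combined regions, 87.5 per Mb against 92.6 in the rest of 3R, and the ratio was 1.01 in replicate 1 and 0.968 in replicate 2. Covered length was even higher in the 3R window than in the rest, at 43.3% against 37.5% in the combined list, 34.2% against 26.4% in replicate 1 and 35.8% against 30.0% in replicate 2. The window of 3L, the other arm of the same chromosome, was covered over 9.20%, against 39.3% of the rest of 3L. Without 3R, the combined windows held 42.9 regions per Mb against 95.5 and were covered over 13.7% against 38.9%.

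**Figure D1:**
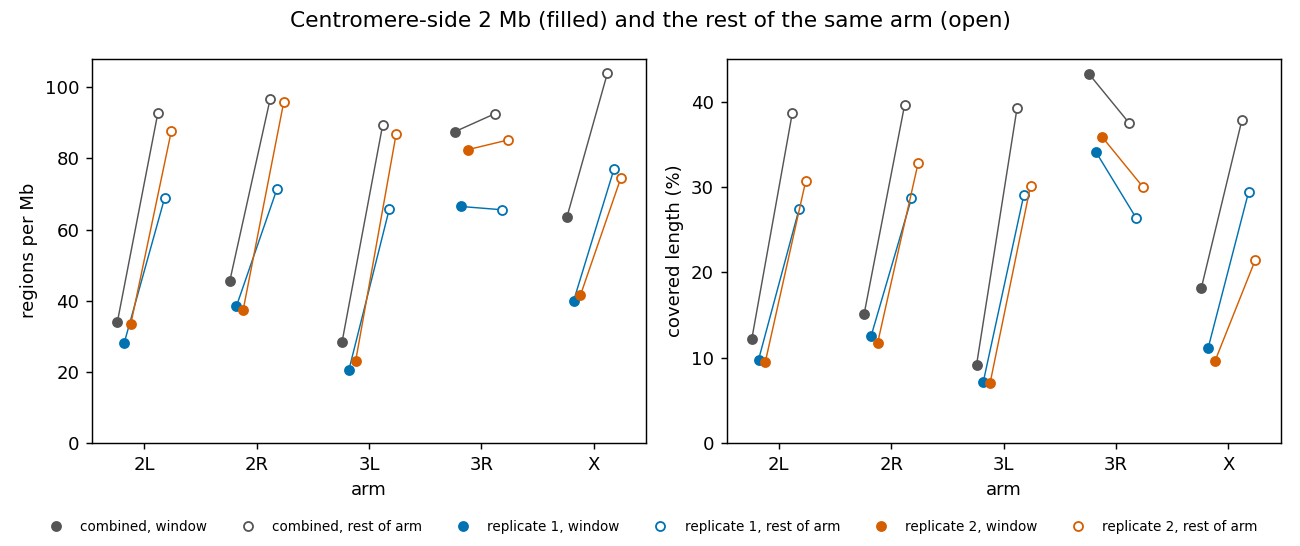
Regions per Mb (left) and covered length in percent (right) for each arm, in the centromere-side 2 Mb (filled points) and in the rest of the arm (open points), with 1 colour per list and a line joining the 2 values of a list. On 2L, 2R, 3L and X every filled point lies below its open partner, whereas on 3R the densities nearly match and the covered share is higher in the window (43.3% against 37.5% in the combined list).

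Steps of 2 Mb along whole arms placed the windows among their neighbours. On 2L, 2R, 3L and X the innermost step had the lowest number of regions and the lowest covered share of all full steps of its arm, in each of the 3 lists. On 3L the innermost step held 57 combined regions, and the other 11 steps held 156 to 209. On 2L it held 68, against 153 to 235 in the other 10 steps. On 2R it held 91, against 167 to 232 in 9 steps, and on X 127, against 182 to 239 in 10 steps. On 3R the innermost step held 175 regions within the range of the other 12 steps, 137 to 218, and its covered share of 43.3% stood near the top of theirs, 24.1% to 47.0%. The opposite, telomere-side 2 Mb of the 5 arms held 88.3 combined regions per Mb and were covered over 37.0%, so the low values were not shared by both ends of the arms.

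**Figure D2:**
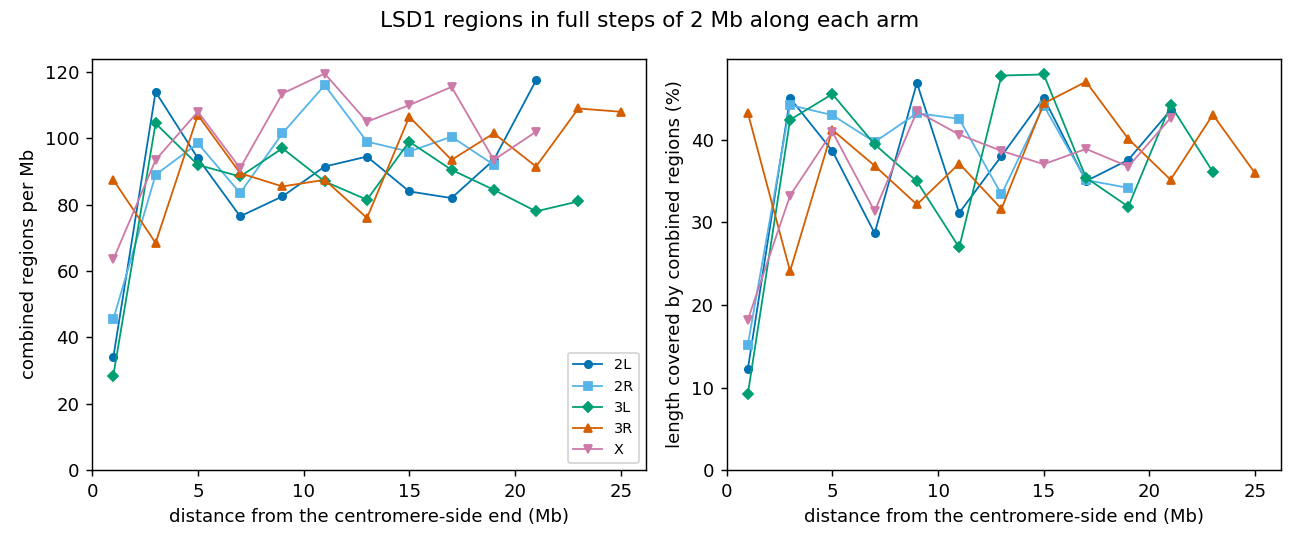
Combined regions per Mb (left) and percent of length covered (right) in full steps of 2 Mb, plotted at the middle of each step against distance from the centromere-side end in Mb, with 1 line per arm. The first points of 2L, 2R, 3L and X are the lowest of their lines (28.5 to 63.5 regions per Mb), and the first point of 3R (87.5) is not.

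Within the windows of 2L, 2R and 3L, density was highest in the outermost 500 kb, in each of the 3 lists. X and 3R did not show this order in all lists. Over the 4 arms without 3R, combined regions numbered 30.0 per Mb in the innermost 500 kb, 25 per Mb between 500 and 1000 kb, 37.5 per Mb between 1000 and 1500 kb and 79.0 per Mb between 1500 and 2000 kb. Covered length in these 4 steps was 6.30%, 6.19%, 12.95% and 29.4%. Replicate 1 gave 18.5, 19.0, 34.0 and 55.5 regions per Mb over the same steps, and replicate 2 gave 15.5, 17.5, 32.5 and 70.0. In these pooled values both replicate lists had fewest regions in the innermost 1 Mb and most in the outermost 500 kb, but X differed from the other 3 arms. Its 4 steps held 74, 26, 74 and 80 combined regions per Mb, so the innermost step was nearly as dense as the outermost. Both replicates were highest on X between 1000 and 1500 kb, with 32, 20, 60 and 48 regions per Mb in replicate 1 and 32, 18, 66 and 50 in replicate 2. On 3R the 4 steps held 90, 54, 90 and 116 combined regions per Mb. Replicate 1 gave 66, 64, 74 and 62 there, and replicate 2 gave 82, 70, 86 and 92. Covered length on 3R was 34.2%, 51.2%, 45.7% and 42.0% in the combined list. It was highest between 500 and 1000 kb in both replicates too, at 44.9% in each, so fewer regions there did not mean less covered length.

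The distance at which density first reached that of the rest of the arm differed between arms. It was taken as the first step of 100 kb from which the next 500 kb were at least as dense as the rest of the arm in the same list, a measure chosen after the profiles were seen. On 3L this was at 1600 kb in the combined list and 1700 kb in each replicate. On 2L it was at 1700 kb in the combined list and 1600 kb in each replicate. On X it was at 1200 kb in the combined list, 1200 kb in replicate 1 and 1100 kb in replicate 2. On 2R the lists were further apart, with 2400 kb in the combined list, 1400 kb in replicate 1 and 2300 kb in replicate 2. On 3R it was at 100 kb in the combined list and within 100 kb of the end in both replicates (0 kb in replicate 1, 100 kb in replicate 2). At this level the 3L and 2L distances were repeatable to 1 step, and the 2R distance was not. That contrast depended on the level. At 50% of the density of the rest, 3L gave 1200 kb in each list. There 2L gave 1500 kb in the combined list, 1200 kb in replicate 1 and 1300 kb in replicate 2. On 2R these distances were 1100, 1100 and 1300 kb. Each distance marks a first crossing and not a lasting return. On X the combined list held 1 region between 1800 and 1900 kb and 0 between 1900 and 2000 kb. On 3R it fell to 54 regions per Mb between 500 and 1000 kb, although these covered 51.2% of that step.

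**Figure D3:**
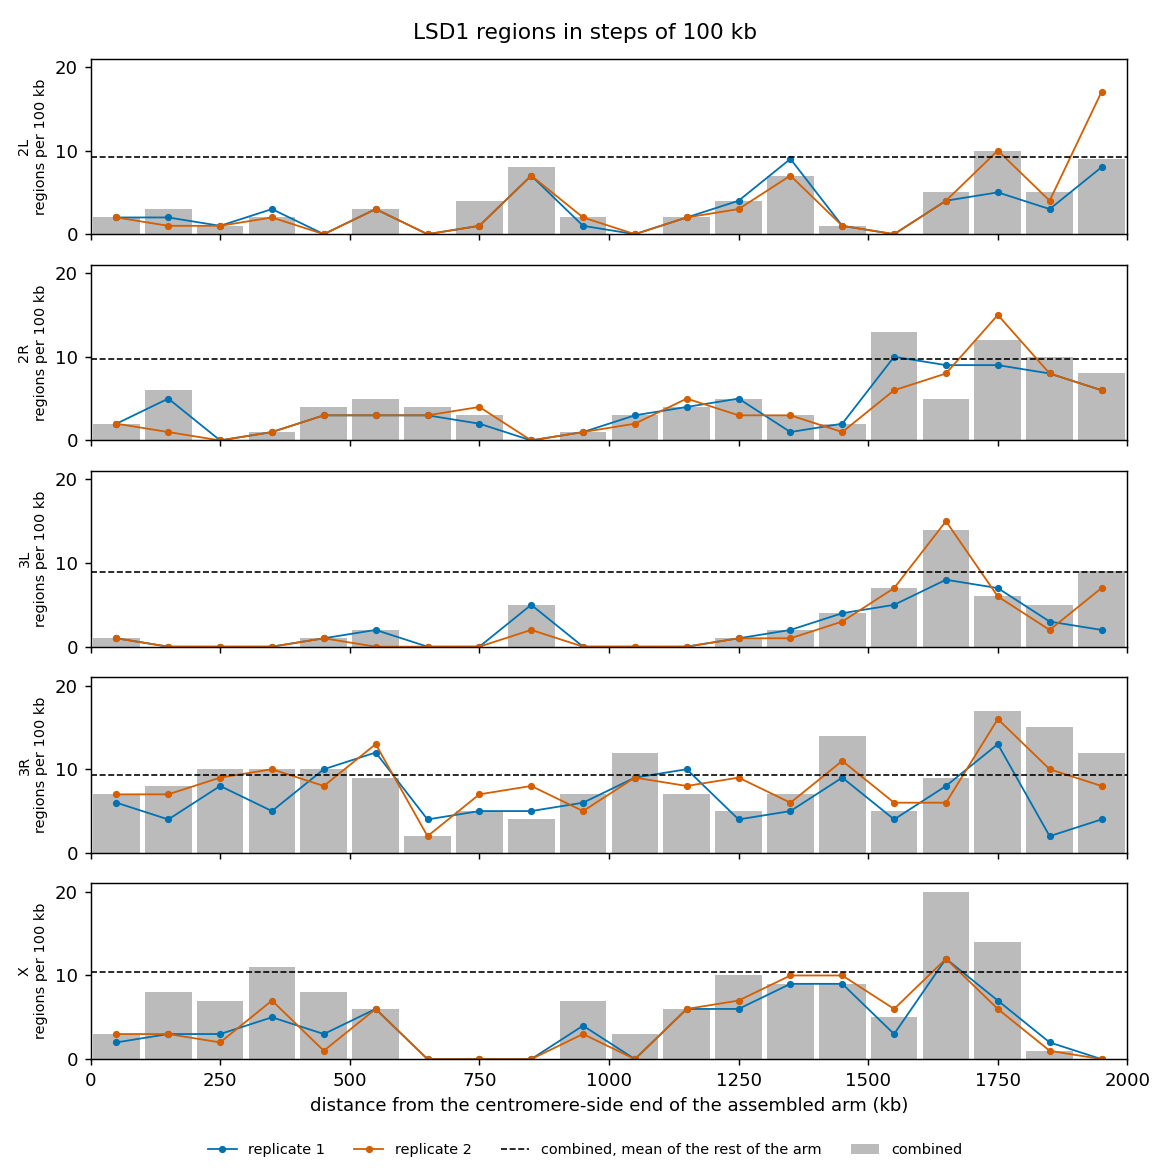
Regions starting in each step of 100 kb, by distance from the centromere-side end in kb, for the combined list (bars), replicate 1 and replicate 2 (lines); the dashed line is the mean of the combined list over the rest of the arm. On 3L, steps with 0 regions are common in the inner 1200 kb and combined counts pass the dashed line at 1600 to 1700 kb, and on 3R every step holds at least 2 combined regions.

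Steps without any region were concentrated in the windows. Of the 100 steps of 100 kb in the 5 windows, 18 held no region in any of the 3 lists (18%), against 8 of 1089 full steps in the rest of the arms (0.735%). 3L had 8 such steps of 20, 2L and X had 4 each, 2R had 2 and 3R had 0. The longest stretch of a window without a region in any list was 3L:24068751-24528542, 459.8 kb long. The next were X:21501869-21844793 with 342.9 kb, 2R:718051-975062 with 257.0 kb and 2L:22250553-22428464 with 177.9 kb. In the 3R window the longest was 3R:680227-730681, 50.5 kb. Stretches of at least 100 kb without a region in any list made up 52.9% of the 3L window, 33.2% of 2R, 32.2% of 2L, 27.4% of X and 0% of 3R. How much of this sequence can be aligned is not known here, so an empty stretch does not show that LSD1 was absent, and the part of alignment in the low densities was not tested. The Het contigs other than YHet, which continue these arms, held 5.93 combined regions per Mb of full length.

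**Figure D4:**
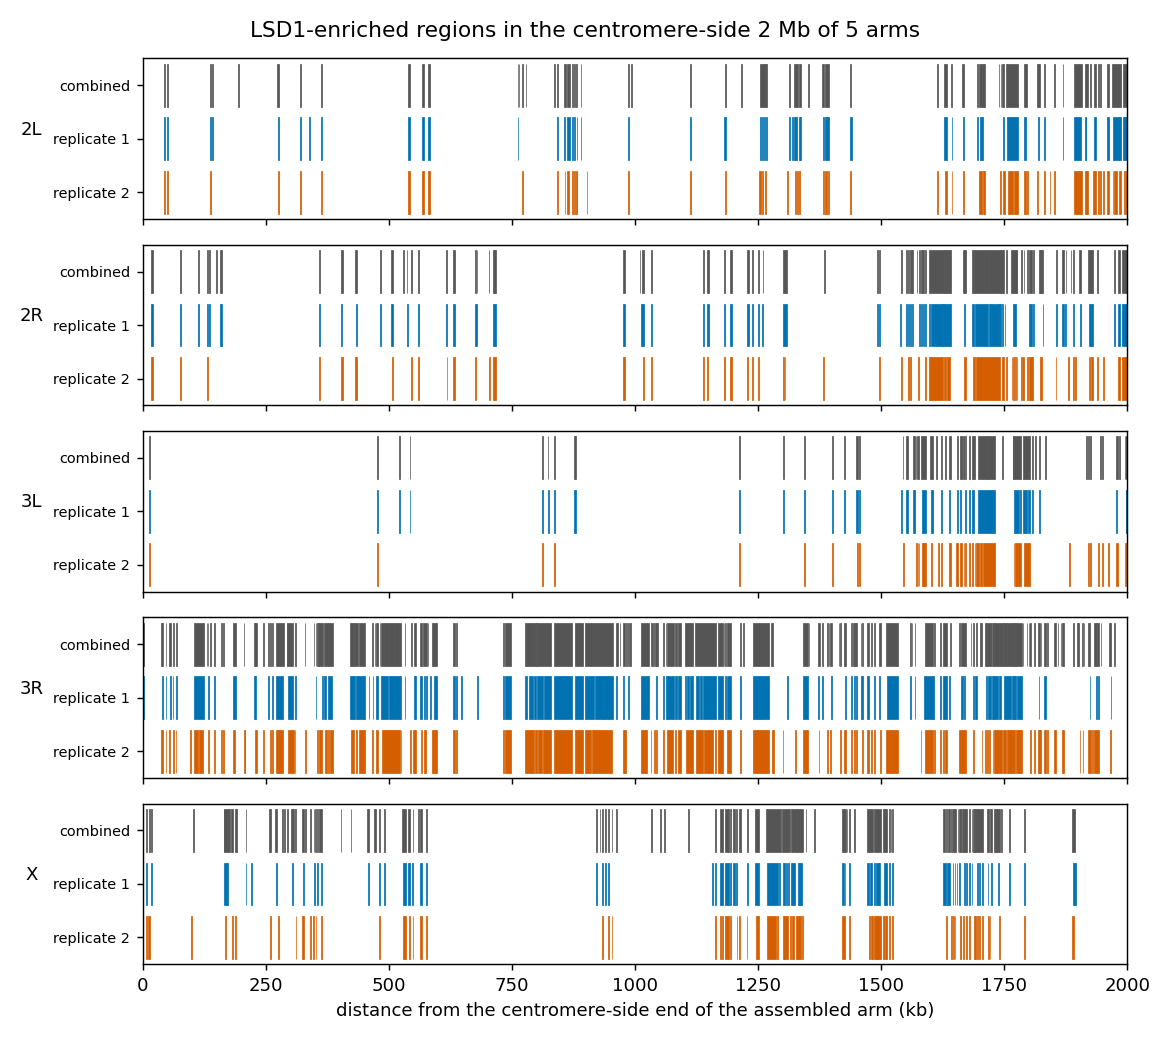
Position of every region in the 5 windows, by distance from the centromere-side end in kb, with a row each for the combined list, replicate 1 and replicate 2. The stretch without regions on 3L (459.8 kb) and that on X (342.9 kb) appear in all 3 rows, and 3R is filled along its length.

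The replicates placed their regions alike over these steps. Across the 100 steps of the windows, the covered length of replicate 1 and replicate 2 had a Spearman coefficient of 0.956, and across the 1089 steps of the rest 0.859. The number of regions gave 0.888 in the windows and 0.704 in the rest. These coefficients are descriptions over neighbouring steps, which share the alignability of the sequence and the same 2 libraries, and steps at 0 in both lists count towards them.

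How often both replicates found a single region depended on the overlap required. With at least 1 bp, both replicates overlapped 244 of the 518 regions, or 47.1% (95% Wilson interval 42.8 to 51.4, which covers counting of regions only), against 44.2% of the whole combined list and 44.0% of the rest of the 5 arms. Replicate 1 overlapped 325 regions (62.7%; 60.3% of the whole list) and replicate 2 also overlapped 325 (62.7%; 63.8% of the whole list). Neither replicate overlapped 112 regions, or 21.6%, against 20.1% of the whole list. The share overlapped by both was 58.8% in the 2L window and 44.6% in the rest of 2L, 51.6% and 48.0% on 2R, 42.1% and 46.2% on 3L, 49.7% and 42.9% on 3R, and 36.2% and 39.0% on X. No direction held over the arms. When 50% of a region had to be overlapped by each replicate, the share in the windows was 7.72 percentage points above that in the rest, against 3.14 with 1 bp. In the reverse view, 291 of the 387 replicate 1 regions of the windows (75.2%) were overlapped by replicate 2, and 328 of the 436 replicate 2 regions (75.2%) by replicate 1. In the rest of the arms these shares were 75.9% and 70.2%.

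Support was higher among wider regions in the windows and in the rest. A wide region meets a replicate region more easily by construction, and no replicate region was narrower than 1301 bp, so the overlap rule itself favours the wide classes. In the windows 3 of 141 regions under 1500 bp were overlapped by both replicates (2.13%), 78 of 188 between 1500 and 2500 bp (41.5%), 84 of 107 between 2500 and 5000 bp (78.5%), 43 of 46 between 5000 and 10000 bp (93.5%) and all 36 of at least 10 kb. The rest of the arms gave 1.40%, 31.7%, 70.5%, 96.3% and 100% in the same classes. By distance the share overlapped by both over the 5 arms was 41.0%, 55.8%, 58.3% and 40.7% in successive steps of 500 kb. The innermost 500 kb of X stood low, with 5 of 37 regions overlapped by both (13.5%) and 17 by neither; these regions had a median width of 1555 bp. In the innermost 1500 kb of 3L, all 16 combined regions were overlapped by replicate 1 and 9 of them by replicate 2.

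Broad domains were absent from the lists in the innermost 1 Mb of 4 arms. Regions of at least 10 kb numbered 36 of 518 in the windows (6.95%), against 8.39% of the whole combined list, and 22 of the 36 were on 3R. Within the innermost 1 Mb of 2L, 2R, 3L and X, 0 of 110 combined regions, 0 of 75 in replicate 1 and 0 of 66 in replicate 2 were that wide. The widest combined region there was X:21888158-21895658, of 7501 bp. Between 1 and 2 Mb the same 4 arms had 14 of 233 combined regions. In their rest it was 682 of 7937 combined regions, 462 of 5872 in replicate 1 and 305 of 7154 in replicate 2. The 0 counts allow shares of up to 2.73%, 4% and 4.55%, approximate upper 95% limits that cover counting of regions only. The limits take the regions of a list as independent, so they are no test of a difference from the rest in any list. In replicate 2 the limit was not even below the share in the rest. The 4 arms were grouped after the values per arm were seen. On 3R, by contrast, 12 of 72 combined regions in the innermost 1 Mb were broad (16.7%), as were 12 of 65 in replicate 1 and 8 of 76 in replicate 2. The median width of all regions differed little, at 2022 bp in the windows and 2021 bp in the rest for the combined list. Among regions overlapped by both replicates it was 3289 bp in the windows and 4318 bp in the rest. By arm these medians were 3286 against 4522 bp on 2L, 2791 against 4166 bp on 2R, 3030 against 4377 bp on 3L and 2976 against 4437 bp on X, whereas 3R had 4647 against 4098 bp.

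**Figure D5:**
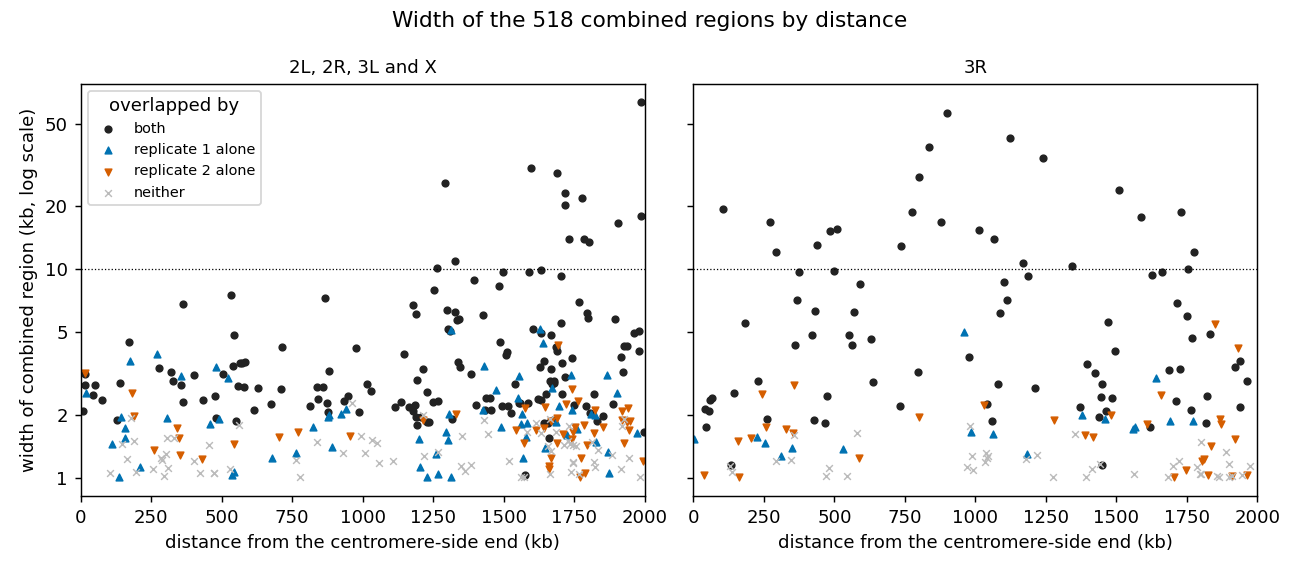
Width of each of the 518 combined regions in kb (log scale) by distance from the centromere-side end in kb, on 2L, 2R, 3L and X (left) and on 3R (right), with symbols for overlap by both replicates, by 1 of them or by neither; the dotted line marks 10 kb. No region of the left panel lies above the line in the innermost 1000 kb, whereas 12 do on 3R.

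The regions nearest to the centromere-side end of each arm sequence were compact and, on 4 arms, found in both replicates. Regions of the Het contigs were not considered here. Region scores are the authors' values, read as log2 enrichment of ChIP over input, and each list carries its own constant. The nearest region of 2R, 2R:16848-19632, had the highest score of the 2R window among regions found in both replicates, with a combined score of 1.498 (2.82-fold) and replicate scores of 1.59 and 1.49 for replicates 1 and 2. On 3L the nearest region was 3L:24528712-24531852, whose start lay 14.8 kb from the end. It scored 1.18 combined, 1.27 in replicate 1 and 1.01 in replicate 2. It stood alone: the next region, 3L:24066206-24068676, came after the stretch of 459.8 kb and scored 0.81 combined, 1.04 in replicate 1 and 0.51 in replicate 2. On 2L the nearest region was 2L:22967144-22969636, whose start lay 44.4 kb from the end. It scored 0.80 combined, 0.89 in replicate 1 and 0.81 in replicate 2. On X the nearest region was X:22414124-22416200, whose start lay 8.70 kb from the end, with 0.71, 0.86 and 0.59. The nearest region of 3R, 3R:976-2502, scored 0.39 combined and was overlapped by replicate 1 alone (0.43).

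The highest-scoring regions of each window found in both replicates varied in the gap between their replicate scores, which also holds the constants of the lists. Over the 244 regions of the windows that both replicates overlapped, the median gap was 0.187. The domain 3R:877686-894576 lay within it, with a combined score of 1.27 and 1.22 and 1.35 in replicates 1 and 2. The gap was wider at X:20630496-20632694, with 1.42 combined, 1.47 in replicate 1 and 1.20 in replicate 2. The domain 3L:22826436-22846836, 20.4 kb wide, had a combined score of 1.41, with 1.38 and 1.67 in replicates 1 and 2. A much higher score in replicate 1 was seen at several compact regions. These included 3R:975442-979228 (1.32 combined, 2.45 in replicate 1, 0.57 in replicate 2) and 3L:23091690-23094106 (1.46, 2.12 and 0.78). The same order was seen at 2R:1145494-1149392 (1.46, 2.00 and 0.87), 2L:21898342-21900510 (1.46, 1.76 and 1.11) and 2L:22734906-22738254 (1.26, 1.53 and 0.94).

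The order of the replicate scores was also counted over all regions that both replicates overlapped. The named regions are included, so these counts are not separate support. Over the 4 arms without 3R, replicate 2 had the higher score at 17 of 46 regions of the innermost 1 Mb that both replicates overlapped (37.0%), at 65 of 111 between 1 and 2 Mb (58.6%) and at 2524 of 3514 in the rest (71.8%). On 2L the share was 47.5% in the window against 79.1% in the rest, and on 2R 48.9% against 78.5%. 3L gave 54.2% against 71.0%, 3R 75.9% against 76.5% and X 58.7% against 57.8%. These bins were chosen after the scores were seen. The difference was not tested, and a wide replicate region can be the partner of several combined regions.

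The widest regions lay toward the outer edge of the windows on the autosomes other than 3R. 2R:1988386-2051522, 63.1 kb wide, began just inside the limit and ran past it; its combined score was 1.33, with 1.35 and 1.30 in replicates 1 and 2. It was a single region of 62235 bp in replicate 1 and 3 regions, the longest of 47621 bp, in replicate 2. The second widest of 2R was 2R:1597418-1627892 (30.5 kb), which scored 0.83 combined, 0.89 in replicate 1 and 1.01 in replicate 2. On 2L they were 2L:21233810-21255820 (22.0 kb; 0.89, 0.91 and 1.00) and 2L:21024040-21042104 (18.1 kb; 0.73, 0.88 and 0.78). 3L:22759602-22773592, the second widest of 3L with 13991 bp, scored 0.78, 0.74 and 1.18. On X the widest were X:21129050-21155054 (26.0 kb; 1.20, 1.21 and 1.54) and X:21093862-21104798 (10.9 kb; 0.66, 0.88 and 0.88). On 3R the widest lay further in, at 898 kb and 1122 kb from the end. These were 3R:898276-954580 (56.3 kb), with a combined score of 1.06 and scores of 1.26 and 1.06 in replicates 1 and 2, and 3R:1122390-1165062 (42.7 kb), with 0.87, 0.93 and 1.21.

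Scores as a whole did not separate the windows from the rest. The median combined score was 0.55 in the windows and 0.50 in the rest, a difference of 0.046. The difference was 0.079 in replicate 1 and −0.0030 in replicate 2, a mean of 0.038 ± 0.058 (SD, n = 2), so it was within the spread between replicates. By arm, the difference in replicate 1 was 0.124 on 2L, 0.114 on 2R, 0.088 on 3L, 0.078 on 3R and 0.0041 on X. In replicate 2 it was −0.074, −0.034, 0.016, 0.030 and −0.039 in the same order. The replicates thus differed in direction on 2L, 2R and X. Wider regions scored higher in the windows as in the rest (Spearman coefficients 0.524 and 0.515, across 518 and 10336 regions). As a measure of what lies behind a score, the denominators of the score ratios in lowest terms were taken per kb at their 80th percentile. The windows stood at 0.934 times the rest in replicate 1 and 1.10 times in replicate 2. The meaning of these denominators is not stated by labels or headers, and they exist only for listed regions.

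The regions on either side of the 2 Mb limit are given here with their combined scores. The last combined regions inside it were 2L:21024040-21042104 (0.73), 2R:1988386-2051522 (1.33), 3L:22545638-22547296 (0.44), 3R:1973684-1974814 (0.36) and X:20528798-20534536 (0.82). The first outside it were 2L:21011242-21021184 (0.66), 2R:2052642-2063266 (1.05), 3L:22543338-22545526 (0.54), 3R:2032834-2035570 (0.59) and X:20394922-20397192 (0.99). Sides were assigned by the start coordinate alone. The regions of 2L and 3L named as outside crossed the limit and lay mostly within the windows, whereas 2R:1988386-2051522 lay mostly outside.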

How the data were processed

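Each ChIP sample had 1 list of enriched regions, and the labels name the input of the same number as its control. The third list combined the replicate set. The submitters' processing notes name Bowtie 0.12.7, and the genome is release 5 per the file headers. Neither labels nor headers state the region caller, its threshold or how the combined list was built. The score the authors deposited was read as a log2 enrichment. Its scale is named in no header: once a constant was taken off each list, 2 to the power of the score equalled a ratio of whole numbers for 8110 of 8115 replicate 1 regions, 9910 of 9911 replicate 2 regions and 10988 of 11016 combined regions (relative tolerance 1e-12, denominators up to 6000), and in at most 1 region per list after random amounts were added.

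Only entries typed as enrichment were kept, which left out 3 depletion entries of the combined list. Distance ran from the centromere-side end of the arm (lengths from the headers) to the start of the region. On 2L, 3L and X the start is the edge farther from that end, and on 2R and 3R the nearer edge. Covered length was clipped at the limits of a window or step, and an overlap was at least 1 bp. When a combined region met several regions of a replicate, the one of longest overlap gave the score. Calculations used Python 3.11.15, numpy 2.4.6, pandas 2.3.3 and scipy 1.17.1, and the counting functions were tested on simulated lists.

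Regions named per arm were the one nearest to the centromere-side end, the 2 widest and the 2 with the highest score found in both replicates. Those on either side of the 2 Mb limit and the longest stretch without a region were also named. Other regions named (the second of 3L and the widest of the innermost 1 Mb of 4 arms) were chosen after their values were seen. The members and lists were chosen with earlier results of these data known. The gene table supplied follows release 6, and for this reason genes were not assigned to regions and no sequence is shown.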

Additional observations from a re-analysis of the deposited data

How the results depend on the processing

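Of 50 alternatives for 5 results, 24 stayed within 1 SD of the replicates, 19 moved further without turning and 7 turned the direction. For density, covered share, score and width, leaving a replicate out meant using the other replicate's own list. The combined list was not rebuilt. The replicate lists covered 28.1% and 29.1% of the rest, against 38.5% in the combined list, so these values also hold the change of list. The ratio of density in windows to rest stayed below 1 in all of its alternatives: 0.389 and 0.657 with windows of 1 and 3 Mb, 0.587 against the telomere-side 2 Mb, 0.640 among the upper 50% by score, 0.585 among regions overlapped by both replicates, 0.449 without 3R (chosen after the values per arm were seen), and 0.508 to 0.557 with either replicate left out. The difference in covered share stayed negative, at −24.4 and −13.4 percentage points with windows of 1 and 3 Mb, −17.4 against the telomere side, −18.0 without combined regions under 1301 bp, the smallest width in either replicate list, −13.3 among the upper 50% by score, −14.5 among regions overlapped by both, −25.2 without 3R and −14.3 to −13.2 with either replicate left out. Each of the other results turned in at least 1 alternative. The median score difference turned only with replicate 1 left out, to −0.0030, and lay between 0.023 and 0.079 in the other alternatives. The median width difference of 1 bp turned to −11 bp against the telomere side, −132 bp with the same minimum width, −647 bp among the upper 50% by score and −1029 bp among regions overlapped by both, and ranged from −13 to 105 bp with either replicate left out. The difference in support by both replicates, 3.14 percentage points, moved to 0.037 among the upper 50% by score and 7.72 when 50% of a region had to be overlapped. It stayed positive in every alternative that counted both replicates. Overlap by 1 replicate, a different measure, gave 2.91 for replicate 1 and −1.20 for replicate 2. The cause of these shifts was not tested. No paired analysis was possible because each list already sets a ChIP library against its own input and no second group had lists. The depth of the libraries and the alignable share of the windows limit what the low densities show.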
